A study of Mus musculus with 4 samples.

Results

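The genes for the eukaryotic translation initiation factors (symbols beginning Eif and a digit) were examined for occupancy by Trim33, a chromatin-bound ubiquitin ligase that works with SMAD proteins downstream of TGF-beta. The members were the protein-coding genes of a mm10 RefSeq gene table whose symbol fits that pattern, with Eif4enif1 left out. There were 55 of them among 21887 protein-coding genes. The pattern also takes in regulators of initiation, namely the eIF2 kinases (Eif2ak) and the eIF4E-binding proteins (Eif4ebp).

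The material was Th17 cells (IL-17-producing CD4 helper T cells) of strain C57BL/6. They were made in culture from naive CD4+ T cells of spleen and lymph nodes, on plates coated with anti-CD3 and CD28, with IL-6, TGF-b and antibodies against IL-4 and IFN-g, and all groups shared this culture. The series has 2 libraries from chromatin immunoprecipitation (ChIP) with a Trim33 antibody and 2 input DNA libraries with no antibody. The labels name no age, sex or number of mice, and there was no group without Trim33. One list of 27050 peaks was called on the merged replicates, so each peak has 1 value, the spread between cultures and the depth of each library are unknown, and no difference below could be tested over samples. The fold enrichment is the authors' ratio of signal to background at the summit and ranged from 1.91 to 54.6 over the whole list, with a median of 6.00. Peaks do not measure expression. The loci (gene with 10 kb on each side) of Il17a, Il17f, Il23r, Ccr6, Rora, Cd4 and Cd3e each held summits. Those of Cd79b, Ms4a1, Csf1r and Alb held none, and 53.9% of all protein-coding genes held a summit in the locus. Within 1000 bp of a boundary of the gene, only Il17a, Il17f and Il23r had one (3 of 7, against 33.4% of all genes).

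Translation begins when the small ribosomal subunit, bound by eIF1, eIF1A, eIF3 and eIF5, takes up the initiator tRNA carried by eIF2 and GTP. The cap-binding complex of eIF4E, eIF4G and the helicase eIF4A brings in the mRNA, and eIF5B joins the large subunit. Regulation falls mostly on eIF2, through its exchange factor eIF2B and its stress kinases, and on eIF4E, through binding proteins that the kinase mTOR switches off. Activated T cells raise protein synthesis as they grow and divide.

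Trim33 summits lay at the ends of most of these genes, and where the strand was known they lay at the start of the gene. A summit no more than 1000 bp from either boundary of the annotated gene is called a gene-end summit. Of the 55 members 38 (69.1%) had one, against 33.4% of all protein-coding genes and 38.1% of those left when Olfr, Vmn, Gm and Rik symbols were removed. Strand was available for 43 members. Of these, 30 (69.8%) had a summit within 1000 bp of the 5′ end, against 32.1% of the 17492 genes of known strand, and 0 had one within 1000 bp of the 3′ end, against 2.96%. The members were close to all genes in median length, with 17815 bp against 17169 bp, but their upper quartile was lower, with 30629 bp against 44339 bp. Without Olfr, Vmn, Gm and Rik symbols the median of the other genes was 20580 bp. Another protein-coding gene ended within 1000 bp of the 5′ end in 9 of 43 members (20.9%), against 15.3% of genes of known strand. These shares describe 1 merged peak list and carry no error between cultures.

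The 250 bases before the start site are shown for 6 members, chosen after their values were seen to show 4 promoters with a high summit, and beside them an eIF3 and an eIF4A-family promoter without one. Eif3f, Eif3m, Eif4a2 and Eif1ax had summits of 10.9-fold, 9.69-fold, 9.95-fold and 10.3-fold, and Eif3l and Eif4a3 had no summit in their loci. The sequences are RefSeq's (GRCm38.p6, the mm10 assembly), written 5′ to 3′ on the strand of the gene, and capitals mark every match to the motifs named further on. Eif3f lies at chr7:108934165-108934414 (plus strand), Eif3m at chr2:105017028-105017277 (minus strand), Eif3l at chr15:79074973-79075222 (plus strand), Eif4a2 at chr16:23107218-23107467 (plus strand), Eif4a3 at chr11:119300044-119300293 (minus strand) and Eif1ax at chrX:159371928-159372177 (plus strand).
Eif3f: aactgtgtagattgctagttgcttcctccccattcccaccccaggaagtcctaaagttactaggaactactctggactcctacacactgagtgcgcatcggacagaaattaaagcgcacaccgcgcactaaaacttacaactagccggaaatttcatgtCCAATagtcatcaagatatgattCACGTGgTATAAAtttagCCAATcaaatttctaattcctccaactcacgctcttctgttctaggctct
Eif3m: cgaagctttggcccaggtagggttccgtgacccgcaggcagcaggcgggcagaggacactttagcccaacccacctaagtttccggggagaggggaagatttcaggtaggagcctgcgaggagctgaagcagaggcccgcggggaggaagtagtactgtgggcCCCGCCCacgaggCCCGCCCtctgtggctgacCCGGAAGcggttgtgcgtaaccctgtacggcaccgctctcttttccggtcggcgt
Eif3l: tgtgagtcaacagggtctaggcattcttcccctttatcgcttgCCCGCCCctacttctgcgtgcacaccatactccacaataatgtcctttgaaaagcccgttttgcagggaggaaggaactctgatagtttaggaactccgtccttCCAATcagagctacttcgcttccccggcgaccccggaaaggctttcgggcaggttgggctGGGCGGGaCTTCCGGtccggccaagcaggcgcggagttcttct
Eif4a2: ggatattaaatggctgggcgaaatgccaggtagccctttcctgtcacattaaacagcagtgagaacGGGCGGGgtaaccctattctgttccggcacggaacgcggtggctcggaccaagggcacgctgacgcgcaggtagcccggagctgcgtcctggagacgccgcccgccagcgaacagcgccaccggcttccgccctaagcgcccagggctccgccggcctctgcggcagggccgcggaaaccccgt
Eif4a3: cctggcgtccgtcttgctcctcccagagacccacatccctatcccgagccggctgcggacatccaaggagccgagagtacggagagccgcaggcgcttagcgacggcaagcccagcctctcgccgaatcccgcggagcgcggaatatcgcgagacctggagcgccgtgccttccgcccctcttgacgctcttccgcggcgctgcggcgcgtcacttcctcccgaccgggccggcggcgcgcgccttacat
Eif1ax: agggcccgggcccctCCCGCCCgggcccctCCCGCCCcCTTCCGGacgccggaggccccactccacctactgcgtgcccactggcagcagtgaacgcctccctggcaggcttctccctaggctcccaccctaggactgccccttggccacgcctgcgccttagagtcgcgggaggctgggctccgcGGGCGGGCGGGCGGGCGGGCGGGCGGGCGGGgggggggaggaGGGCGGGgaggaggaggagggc

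In the first 3 of these, all from eIF3 subunits, the summit of Eif3f lay 159 bp and that of Eif3m 115 bp before the start, inside the window shown. The Eif3f window held an E-box 68 to 63 bases before the start, with a TATA box next to it at 61 to 56 bases. The Eif3l window held a GC box 43 to 37 bases and an ETS motif 35 to 29 bases before the start, with no summit in its locus, and the Eif3m window held GC boxes at 87 to 81 and 74 to 68 bases and an ETS motif at 55 to 49 bases. The Eif4a2 window held 1 GC box, and its summit lay 70 bp before the start. The Eif4a3 window held none of the motifs and had a G+C content of 70%, above the 66.4% of Eif4a2. Eif1ax had 10 GC boxes before the start, 7 of them overlapping in 1 run, and its summit lay 211 bp before the start, at its ETS motif.

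**Figure D1:**
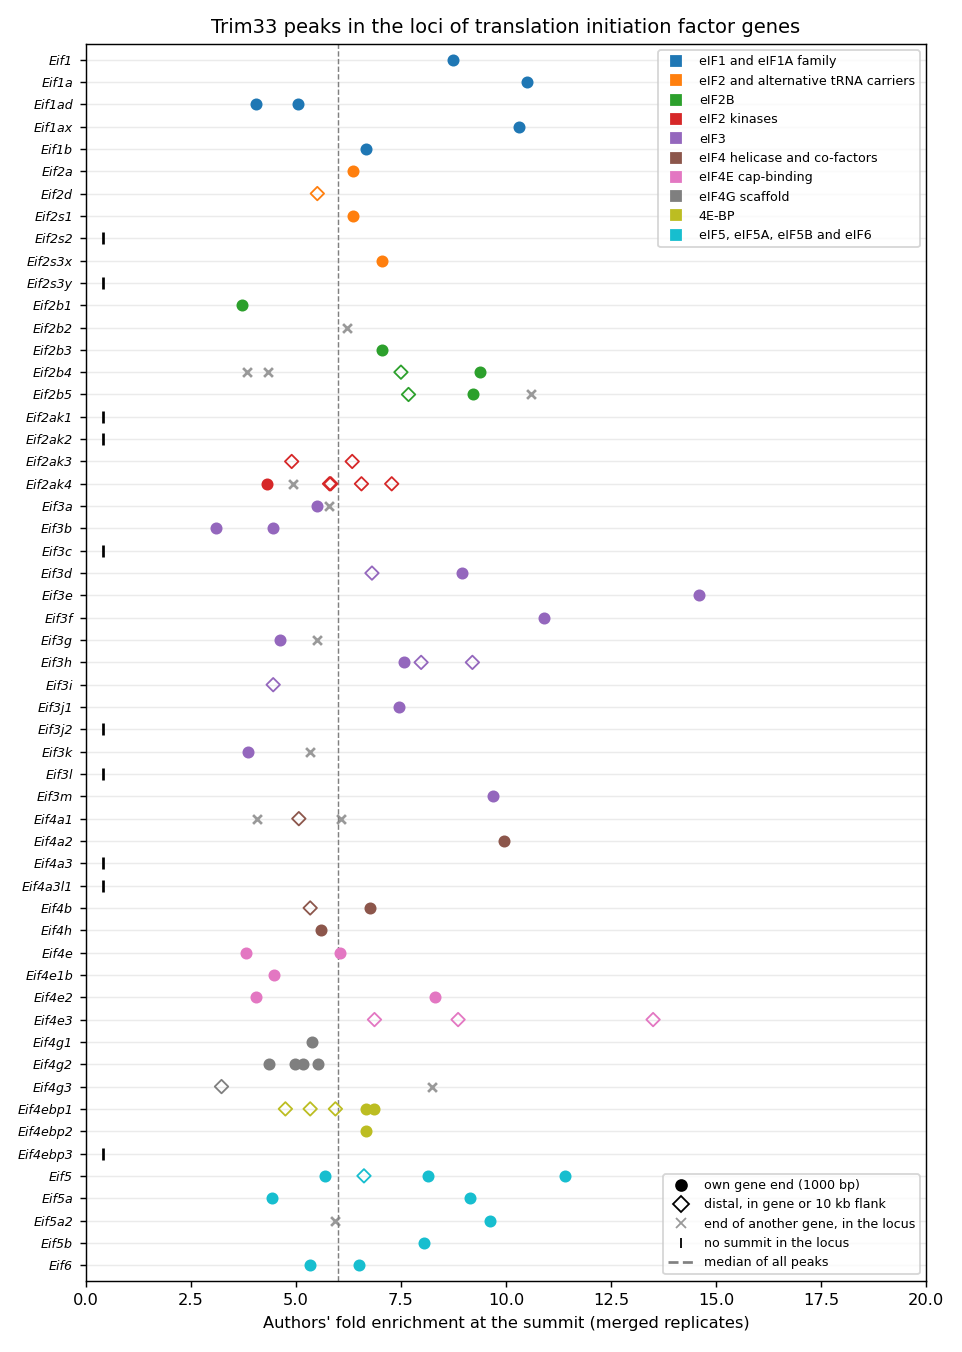
Each summit in the loci of the 55 members (rows, grouped and coloured by role) by the authors' fold enrichment (linear axis, merged replicates): filled circles are own gene-end summits, open diamonds distal summits, grey crosses summits at ends of other genes only, and black ticks at the left mark loci with no summit. The highest gene-end summit is that of Eif3e at 14.6-fold, and 10 members have no summit.

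All 5 genes of the eIF1 and eIF1A family had a gene-end summit, against 33.4% of all protein-coding genes. The factors eIF1 and eIF1A hold the scanning ribosome open and read the start codon. Eif1a had 10.5-fold enrichment at 77 bp outside its lower end on chromosome 18, and Eif1ax on chromosome X had 10.3-fold. Eif1 had 8.75-fold, 519 bp inside the gene from its start, and Eif1b had 6.66-fold at 114 bp upstream. Eif1ad, which encodes a protein with an eIF1A-like domain, was the lowest with summits of 5.04-fold and 4.06-fold. The peak of Eif1ax stood on a chromosome where 15.5% of 966 genes had a gene-end summit.

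The genes for eIF2, the GTPase that carries the initiator tRNA, were split. Eif2s3x, the gamma subunit gene on chromosome X, had a 7.04-fold summit at 257 bp upstream, while its counterpart Eif2s3y on chromosome Y had none, on a chromosome with 3 peaks in all. The alpha subunit gene Eif2s1 had a 6.36-fold summit at 399 bp upstream, but this lay 335 bp from an end of Atp6v1d and so nearer to that neighbour. The beta subunit gene Eif2s2 had no summit in its locus. Of the factors that can deliver tRNA apart from eIF2, Eif2a had 6.36-fold enrichment at 107 bp, with an end of Serp1 nearer at 44 bp. Eif2d had 1 summit of 5.51-fold, 9406 bp beyond the far end of the gene.

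The eIF2B genes encode the exchange factor that reloads eIF2 with GTP. Of the 5 genes 4 (80%) had a gene-end summit, against 33.4% of all genes. Eif2b4 had 9.38-fold and Eif2b5 9.21-fold enrichment, 61 bp and 100 bp downstream of their starts. Eif2b3 had 7.05-fold at 9 bp from its lower end. Eif2b1 had 3.71-fold at 23 bp downstream, the lowest among the highest gene-end summits of the 38 members. Eif2b2 had none, and the only summit in its locus (6.22-fold) lay 904 bp from an end of Mlh3. The subunits of this 1 complex thus ranged from no gene-end peak to over 9-fold.

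The eIF2 kinases shut down initiation under stress. Of the 4 kinase genes 1 (25%) had a gene-end summit, against 33.4% of all genes. This was Eif2ak4, with 4.31-fold at 15 bp downstream of its start. Eif2ak4 encodes Gcn2, the sensor of amino acid shortage. Inside its gene of 86652 bp it also had 4 distal summits of 7.28-fold, 6.56-fold, 5.83-fold and 5.80-fold. Distal here means in the gene or its 10 kb flanks, with no boundary of any protein-coding gene within 1000 bp. Eif2ak3, the endoplasmic reticulum stress kinase Perk, had 2 distal summits of 6.34-fold and 4.90-fold inside the gene (60758 bp) and none at its ends. Eif2ak1, which responds to heme shortage, and Eif2ak2, the double-stranded RNA sensor Pkr, had no summit in loci of 84926 bp and 32069 bp of gene with 10 kb flanks. Distal summits were found in 2 of the 4 kinase genes (50%), against 31.4% of all genes. With 4 genes neither count was set against the other roles by a test.

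**Figure D2:**
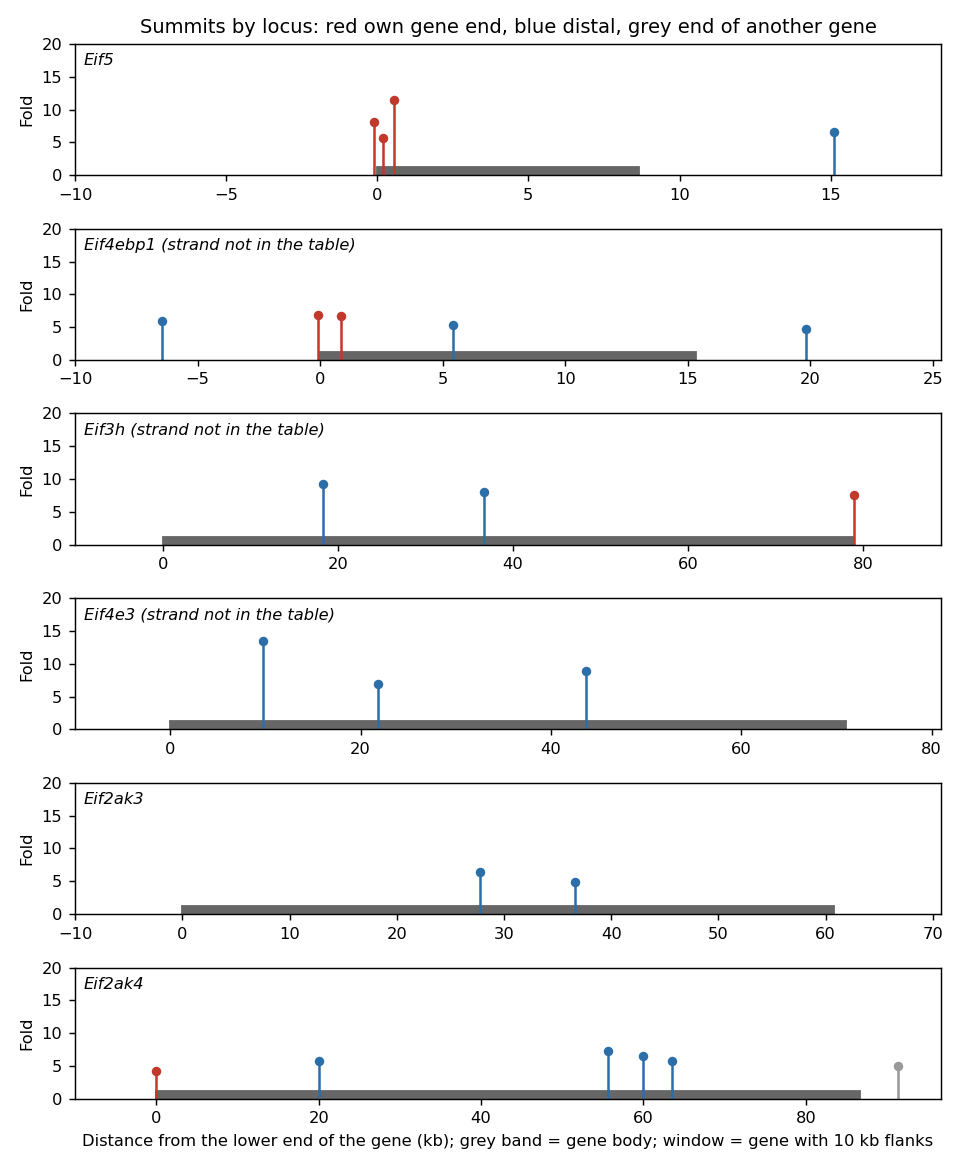
Summits in 6 loci by distance from the lower end of the gene (x axis, kb; grey band, gene body) and authors' fold enrichment (y axis), red for own gene ends, blue for distal and grey for ends of other genes. Eif5 has 3 summits at its start, Eif4e3 and Eif2ak3 have summits inside the gene only, and the 4 distal summits of Eif2ak4 exceed its gene-end summit.

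The eIF3 complex, the largest initiation factor, organises the small ribosomal subunit. Of its 14 genes 10 (71.4%) had a gene-end summit, against 33.4% of all genes. The highest of all members was at Eif3e, with 14.6-fold enrichment at 34 bp outside its upper end at chr15:43282643-43282901, and it ranked 646 of the 27050 peaks. Eif3f had 10.9-fold, Eif3m 9.69-fold, Eif3d 8.96-fold, Eif3h 7.57-fold and Eif3j1 7.45-fold. Lower values were found at Eif3a (5.51-fold), Eif3g (4.62-fold), Eif3b (4.46-fold and 3.10-fold) and Eif3k (3.87-fold). Eif3h also had 2 summits deep inside the gene, of 9.20-fold and 7.98-fold, both above its gene-end value. Eif3i had only a 4.46-fold summit 6581 bp below its lower end. Eif3c, Eif3l and the short gene Eif3j2 (2419 bp) had none. The core subunit genes Eif3a, Eif3b and Eif3c were thus at 5.51-fold, at 4.46-fold and without a peak.

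Among the helicases that unwind the leader of the mRNA, Eif4a2 had a 9.95-fold summit and the closely related Eif4a1 had none within 1000 bp. Its own summit, of 5.07-fold, lay 1037 bp inside the gene from the start, just beyond that limit, and 2 other summits in its locus stood at ends of Mpdu1 and Senp3. Among counted members with a single summit the farthest was Eif4e1b, at 776 bp from its upper end. That summit (4.47-fold) lay 133 bp from an end of Tspan17. Eif4a3, the helicase of the exon junction complex, and Eif4a3l1 had no summit. The helicase co-factor genes Eif4b and Eif4h had 6.77-fold and 5.59-fold summits, 9 bp upstream and 20 bp downstream of their starts.

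The cap-binding genes differed in where the summits lay. Eif4e, the main cap-binding protein, had summits of 6.04-fold and 3.81-fold, 167 bp and 924 bp downstream of its start. Eif4e2, which encodes a cap-binding protein that represses translation, had summits of 8.32-fold and 4.06-fold. Eif4e3 had no gene-end summit but 3 summits inside the gene, of 13.5-fold, 8.86-fold and 6.87-fold. The first, at chr6:99631468-99631875, was the only distal summit of any member at 10-fold or more and ranked 925 in the list. Of the eIF4G scaffold genes, none had a gene-end summit at or above the list median of 6.00-fold. Eif4g1 had 5.39-fold, and Eif4g2 had 4 gene-end summits from 4.37-fold to 5.52-fold. Eif4g3, the longest member at 215308 bp, had none at its ends and a 3.23-fold distal summit beyond its far end. That summit lay 6998 bp from Eif4g3 and nearer, at 2386 bp, to an end of Hp1bp3. An 8.23-fold summit in the locus of Eif4g3 lay 100 bp from an end of Hp1bp3.

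The eIF4E-binding proteins block the cap until mTOR phosphorylates them. Eif4ebp1 had 5 summits, 2 at its lower end (6.85-fold and 6.66-fold) and 3 distal ones (5.94-fold, 5.34-fold and 4.75-fold). Eif4ebp2 had 1 of 6.67-fold at 238 bp upstream, and Eif4ebp3 had none.

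All 5 genes for eIF5, eIF5A, eIF5B and eIF6 had a gene-end summit, against 33.4% of all genes. Eif5, which makes eIF2 hydrolyse GTP at the start codon, had 3 at its start, of 11.4-fold at 547 bp downstream, 8.14-fold at 111 bp upstream and 5.69-fold at 188 bp downstream. Eif5a2 had 9.61-fold enrichment. Eif5a, its widely expressed relative, had 9.15-fold and 4.43-fold. Eif5b, the GTPase of subunit joining, had 8.06-fold at 28 bp from its start. Eif6, which keeps the ribosomal subunits apart, had 5.33-fold at 170 bp inside its upper end. A higher summit of 6.51-fold beyond its lower end lay 17 bp from an end of BC029722.

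The heights of these summits were set beside those of other occupied genes. The highest gene-end summit of a member had a median of 6.95-fold over the 38 members (quartiles 5.54 and 9.19), against 6.07-fold (4.87 and 7.83) over the 7306 genes with such a summit. It reached the median of all peaks in 27 of the 38 (71.1%), against 51.6% of those genes. At 10-fold or more were 5 members, Eif3e, Eif5, Eif3f, Eif1a and Eif1ax, or 9.09% of the 55 against 3.42% of all genes. Among occupied genes alone the shares at 10-fold were 13.2% and 10.2%, so at this level the members stood near the background. Of the 38 members 9 had 2 or more gene-end summits (23.7%), against 17.0% of the occupied genes. They were Eif5 and Eif4g2, and with 2 each Eif4e, Eif4e2, Eif4ebp1, Eif5a, Eif1ad, Eif3b and Eif6.

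Summits at the 5′ end centred on the start as in other genes. The highest 5′ summit lay at a median of 92.5 bp from the start in the 30 members, against 93.0 bp in 5610 genes. It lay within 250 bp in 26 of the 30 (86.7%), against 74.2%, and upstream in 16 (53.3%), against 51.9%. The peaks were 159 to 590 bp wide, with a median of 324 bp against 269 bp. Eif2s1 (399 bp upstream), Eif2s3x (257 bp upstream), Eif1 (519 bp downstream) and Eif5 (547 bp downstream) were the 4 beyond 250 bp.

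**Figure D3:**
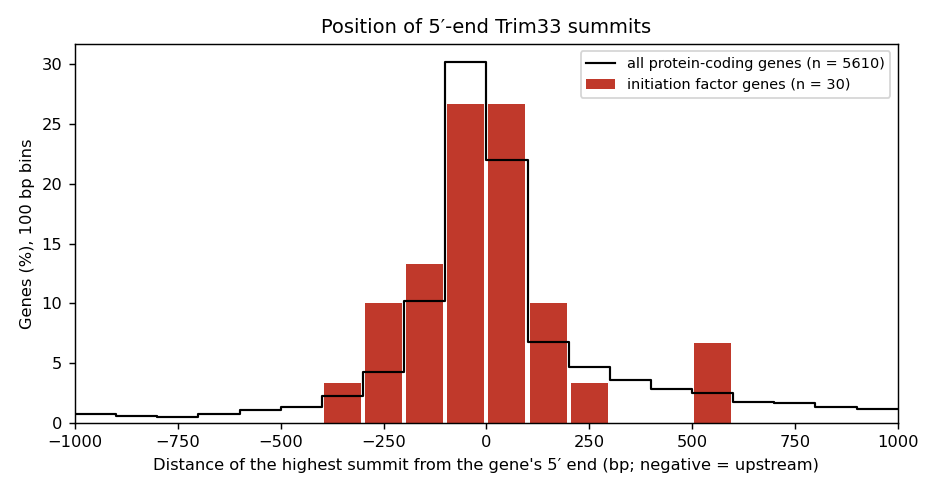
Distance of the highest 5′ summit from the 5′ end of the gene (x axis, bp, negative upstream, 100 bp bins) for 30 members (bars) and 5610 protein-coding genes (line), as percent of genes (y axis). Both peak within 100 bp of the start, with 56.7% of members and 52.4% of all genes there.

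Over whole loci, meaning the gene with 10 kb on each side, 45 of the 55 members (81.8%) held a summit, against 53.9% of all genes. Their loci held 85 distinct summits, 50 of them at the members' own ends, 23 distal and 12 at ends of other genes only. Distal summits were found in 14 members (25.5%), against 31.4% of all genes, so away from gene ends the members were not above the background. Of these 14, 8 also had a gene-end summit and 6 did not. The 13 distal summits inside genes belonged to Eif2ak4, Eif2ak3, Eif4e3, Eif3h, Eif4ebp1 and Eif4a1. In this order the genes were 86652, 60758, 70995, 78899, 15330 and 5488 bp long, against a median of 17815 bp over the members. The part of gene length in these counts was not tested. The 10 loci without any summit were those of Eif2s2, Eif2s3y, Eif2ak1, Eif2ak2, Eif3c, Eif3j2, Eif3l, Eif4a3, Eif4a3l1 and Eif4ebp3.

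Other genes of the translation machinery and its control had like shares at gene ends. Cytosolic ribosomal protein genes had a gene-end summit in 56 of 84 (66.7%), led by Rps20 (14.0-fold), Rps12 (13.8-fold) and Rpl38 (13.6-fold). Elongation and release factors had 11 of 14 (78.6%), led by Eef1b2 (9.44-fold), and cytosolic aminoacyl-tRNA synthetases 14 of 20 (70.0%), led by Vars (13.1-fold) and Yars (12.3-fold). Partners of initiation outside the symbol pattern had 12 of 16 (75%), led by the helicase gene Ddx3x (9.36-fold). The mTORC1 pathway had 14 of 21 (66.7%), led by Lamtor2 (14.2-fold), and the integrated stress response 11 of 15 (73.3%), led by Ddit3 (12.7-fold), the gene of the stress factor Chop. Differences between these lists and the initiation factors were not tested. The median of the highest gene-end fold was 5.85 for ribosomal protein genes and 7.50 for synthetases, beside 6.95 for the members. For distal summits ribosomal protein genes were at 26.2% and the members at 25.5%, against 31.4% of all genes. Elongation and release factors were at 35.7%, the mTORC1 pathway at 38.1%, and synthetases and the integrated stress response at 40% each. Initiation partners were highest at 62.5%. Median gene length was 3179 bp for ribosomal protein genes, 17815 bp for the members and 24964 bp for the partners. The part of length in these shares was not tested.

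**Figure D4:**
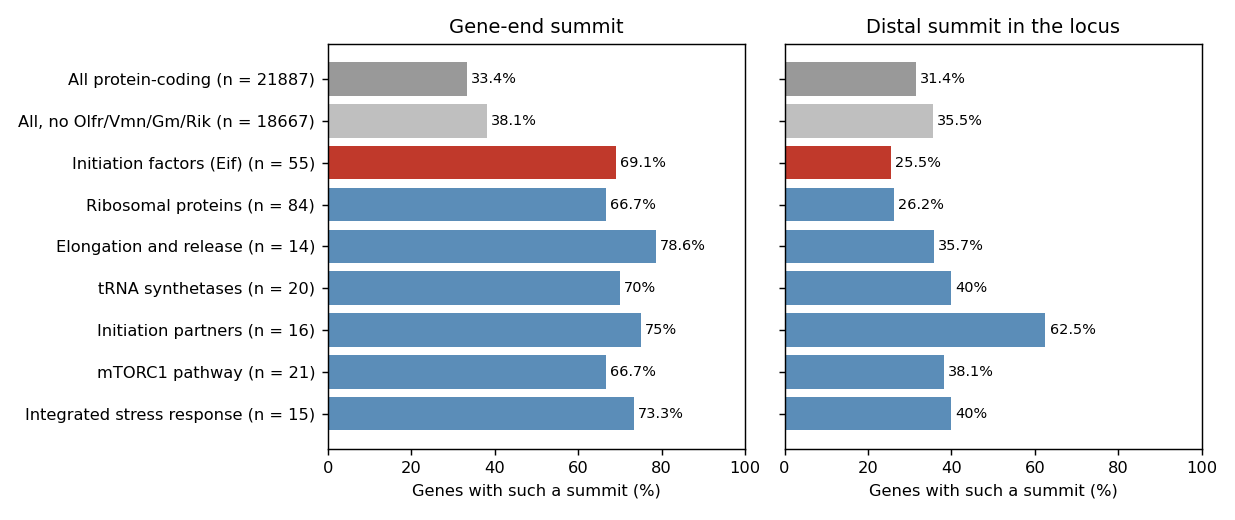
Percent of genes (x axis, from 0) with a gene-end summit (left) and with a distal summit in the locus (right) for all protein-coding genes (grey), the 55 members (red) and 6 other lists (blue). At gene ends all 7 lists lie between 66.7% and 78.6%, above the 33.4% of all genes. For distal summits the members lie at 25.5%, the other lists between 26.2% and 62.5%, and all genes at 31.4%.

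Base composition and motifs of the promoters were described in the 300-base RefSeq windows, 250 bases before to 50 after the start. There was 1 window for each of 43 members and 17492 genes. The start here is the start site of the promoter entry, whereas 5′ summits were counted from the boundary of the annotated gene. These places differ in some members, as in Eif4g3 (position 137993455 for the promoter, 137991779 for the gene). The G+C content had a median of 63.7% in the 30 members with a 5′ summit and 58.0% in the 13 without, beside 62.7% and 52.3% over all promoters with and without one. CpG dinucleotides numbered 25 and 19 in the members (medians), beside 24 and 7 over all promoters. The 13 members without a 5′ summit, some with summits elsewhere in the locus, thus had a higher median CpG number than all promoters without one. Promoters of Olfr, Vmn, Gm and Rik genes were kept in that background. The ETS motif CCGGAAG was found in 10 of the 30 (33.3%) and 4 of the 13 (30.8%). It was in 22.3% of all promoters with a 5′ summit, 7% of those without one and 11.9% of both together. The GC box GGGCGGG, bound by Sp1 and related factors, was in 18 of 30 (60.0%) and 6 of 13 (46.2%). Over all promoters, in the same order, the shares were 54.1%, 24.5% and 34.0%. The E-box CACGTG, a site of Myc and Usf proteins, was in 7 of 30 (23.3%) and 1 of 13 (7.69%), beside 11.0%, 6.44% and 7.91%. The 7 were Eif1b, Eif3a, Eif3f, Eif3k, Eif4g1, Eif4h and Eif5a2, and the other was Eif4a1.

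The CCAAT box, bound by NF-Y, was in 7 of 30 (23.3%) and 6 of 13 (46.2%). It was in 35.3% of all promoters with a 5′ summit, 41% of those without one and 39.2% of both together. The SMAD half-site CAGACA was in 4 of 30 (13.3%) and 2 of 13 (15.4%), beside 14.2%, 21.3% and 19.0% in the same order. The SMAD palindrome GTCTAGAC was in 0 of the 43, beside 0.212% of all promoters. The TATA box TATAAA was in 3 of 30 (10.0%), Eif2s1, Eif3b and Eif3f, and in 1 of 13 (7.69%), Eif2s3y. Its shares over all promoters were 5.78% with a 5′ summit, 16.9% without one and 13.3% in both together. The other motifs were rare in all promoters, and their counts of 0 or 1 among the 43 members give no difference to read. The ATF4 composite element TGATGNAAN was in Eif2s3x, beside 3.66% of all promoters, the NRF1 motif in Eif3k, beside 1.33%, and the YY1 motif AAGATGGCG in Eif2s3y, beside 1.92%. The CRE TGACGTCA was in none of the 43, beside 2.33% of all promoters. Both strands were searched, and GC boxes may overlap each other. Shares of short motifs move with the G+C content, whose part in these shares was not tested, and a match is not a measured binding site.

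**Figure D5:**
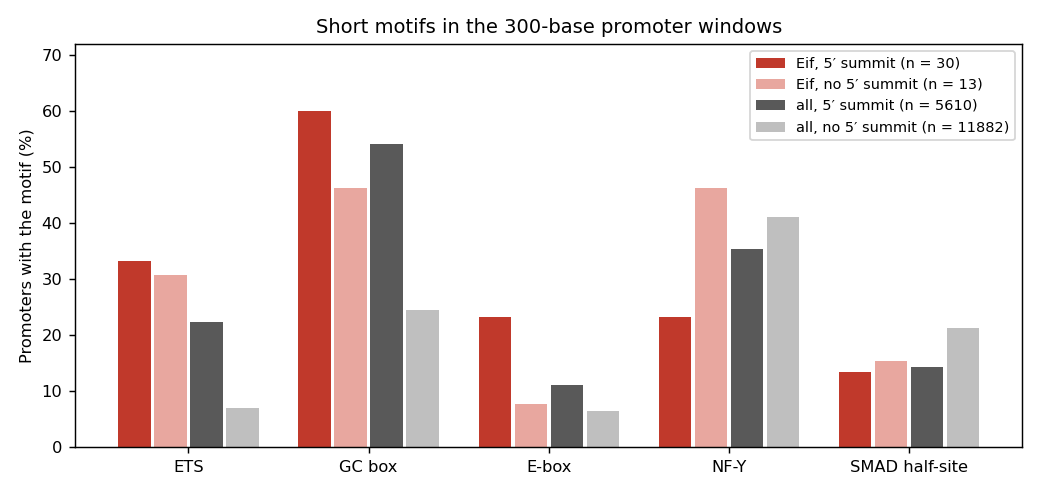
Percent of promoter windows (y axis, from 0) that hold each motif (x axis) for members with and without a 5′ summit (red, pale red) and for all promoters with and without one (dark and light grey). The ETS motif is in 33.3% and 30.8% of the members' windows, beside 22.3% and 7% of the others.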

How the data were processed

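The submitters' processing notes name the build mm10 and the tools MACS2 2.1.1.20160309, Trim Galore 0.3.7 and Bowtie 1.2.1.1. For settings, threshold and control, nothing is given in the sources used here. The authors called the deposited peaks on merged replicates, so a site strong in 1 library alone can be in the list. Its values are a fold enrichment (a ratio made by the authors' peak caller), the deposited −log10 p and −log10 q, and a deposited score that was not used. Summits were joined to a RefSeq table of the same assembly (GRCm38.p6), and strand and promoters came from a RefSeq promoter table, in which 43 of the 55 members matched. Positions count from 1. Eif6, Eif2b3, Eif3i, Eif4e3, Eif4g2, Eif4ebp1, Eif4ebp3, Eif4e1b, Eif3e, Eif3h, Eif3j2 and Eif1a had no promoter entry. Counting was tested on simulated summits at genes with ends far from other genes, so ends shared by neighbours were not covered. The test required the planted summits to be found, not that no other gene was called as having a gene-end summit. Python 3.11.15 and pandas 2.3.3 were used.

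The members and lists were chosen with earlier results of these data known, and other lists were taken by known function. Named are all members by role, and of each other list at most the 3 genes with the highest gene-end fold. No test was run, since the list holds no value per library. Alternatives were other windows, flanks, peak sets, members and backgrounds.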

Additional observations from a re-analysis of the deposited data

How the results depend on the processing

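Of 25 alternatives of the 4 counts (members with a gene-end summit, a 5′ summit, a locus summit and a distal summit), all 25 left the members' share on the same side of the share of all genes, and 21 left the count within 1.5 times. With the gene body alone 22 members held a locus summit (40.0%, against 33.0% of all genes) in place of 45, by construction, since many summits lie just outside the gene. Distal summits were found in 9 members (against 25.7% of genes) at over 2500 bp from all gene ends, in 6 (against 20.7%) with the gene body alone and in 8 (against 20.6%) with peaks at or above the median fold, in place of 14. At gene ends the count ran from 27 (49.1%, against 17.2% of genes, with peaks at or above the median fold) to 39 of 55. The 39 (70.9%) came with a window of 2500 bp, against 38.5% of genes, and with any overlap of peak and window, against 34%. The count was 35 (63.6%, against 29.6% of genes) when a summit counted only for the gene with the nearest end. Without the kinases and eIF4E-binding proteins it was 35 of 48 (72.9%, against 33.4%). Counting any start listed in the promoter table was chosen after the data were seen and gave 30 of 43, against 34.8% of genes. By −log10 q in place of fold, 8 of the 10 members with the highest gene-end peaks were shared. Leaving out a library was not possible. No paired analysis was possible because peaks were called on both ChIP libraries together.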

Other observations

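The same gene table lists 11 pseudogenes with an Eif symbol, most of them copies of Eif1, Eif3e (under its older name Eif3s6) and the helicase genes. None of the 11, which were 372 to 2432 bp long, had a summit inside it, and 1 had a boundary within 1000 bp of a summit. This was Eif2s3x-ps1 on chromosome 15, with 5.69-fold enrichment, while the other 10 had no summit within 10 kb either. The share over other pseudogenes or features of like length is not given here, so these counts show no contrast with the members. How reads that match more than 1 place were counted is not stated in the labels used here.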
